A study of Mus musculus with 8 samples.

Results

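The actin, tubulin and motility genes are 37 genes that build, cross-link and move the cytoskeleton of a fibroblast. They were taken as a fixed list of names, which includes *Actb*, a locus at which the study assayed RNA-DNA hybrids by PCR, and were matched to GENCODE M21 on the mouse build mm10. The 37 genes are part of 55450 annotated genes, of which 21951 are protein-coding. Each gene was given a window, its body extended by 1 kb to either side, and every called peak that overlapped the window by at least 1 bp was counted. The rule for the list is by gene name and uses no peak value. That they are highly transcribed in fibroblasts is the ground on which they were listed and was not measured in these data.

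The measurement was DRIP-seq, in which the S9.6 antibody pulls RNA-DNA hybrids, and with them R-loops, out of genomic DNA cut with 5 restriction enzymes (XbaI, SspI, BsrGI, HindIII, EcoRI), and the recovered DNA is sequenced. All libraries came from mouse embryonic fibroblasts (MEFs) of 1 line, Rtel1F/F;WT RNH1-GFP, whose *Rtel1* alleles are floxed and which express wild-type RNase H1 fused to GFP when doxycycline (DOX) is present. The cells received adenovirus carrying GFP (GFP) or Cre-GFP (Cre), the latter to delete *Rtel1*, which encodes a DNA helicase. After 48 h they received DOX at 2 μg/ml or a mock treatment, and were collected after another 48 h. The GFP cells (GFP mock, GFP DOX) and the Cre cells (Cre mock, Cre DOX) were thus represented by 4 libraries, 1 per condition, each made from 3 pooled immunoprecipitations and each giving 1 peak list. Wherever 4 values are given in a row they follow this order, GFP before Cre and mock before DOX. With 1 library per condition no difference between conditions has a replicate check or a test, and values below describe these 4 libraries. Deletion of *Rtel1* and induction of RNase H1 could not be checked in peak lists.

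R-loops form when a nascent transcript pairs again with its template strand and leaves the other DNA strand single. They are known for forming at GC-rich, unmethylated promoters and at the ends of strongly transcribed genes, more readily where the RNA is rich in G, and the displaced G-rich strand can fold into G-quadruplexes (G4s). RNase H1 digests the RNA of such hybrids. Many cytoskeletal genes are short, have a CpG-rich promoter and are transcribed at a high rate in fibroblasts. A smaller set, the contractile genes of smooth muscle and myofibroblasts (*Acta2*, *Tagln*, *Cnn1* and *Myl9*), is driven by serum response factor and its cofactors through the CArG box and is variably expressed in cultured fibroblasts.

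The 4 lists held 87613, 60219, 91097 and 105081 peaks. A peak's score is 10 times its −log10 q, and its fold enrichment is the signal over the local background of the peak caller. Read numbers were not used here, so that the depth behind a peak is unknown. The smallest peak measured 106, 107, 132 and 213 bp, and the lists covered 36.2, 32.1, 47.6 and 89.0 Mb. Peak lists hold no expression and so do not show which cell type was present. Of 7 fibroblast genes such as *Col1a1*, 5, 3, 4 and 5 held a peak in the 4 lists, as did 2, 1, 1 and 1 of 4 genes of blood, endothelial, epithelial and liver cells. Of all protein-coding genes 55.0, 46.0, 60.4 and 54.1% held one.

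The 2 sequences below were picked for G-rich windows on the coding strand inside a peak of all 4 lists. In *Actb*, the stretch inside a peak of all 4 lists (chr5:142904532-142906660, 2129 bp) lies in the gene body and ends just short of the start site. Within it the G4Hunter algorithm (25-base windows, mean score of at least 1.5) found G-rich windows on the coding strand alone, and 5 of them lay in introns. The 243 bases of chr5:142906188-142906430 (minus strand, intron, 324 to 566 bases past the start site) hold 3 of them, which are in capitals. In *Zyx*, which encodes the adhesion protein zyxin and carried the highest-scoring peak of the 37 genes, the intronic bases chr6:42350505-42350598 (plus strand) lay inside a peak of all 4 lists and hold 2 such windows, again in capitals. Unlike *Actb*, *Zyx* had windows on both strands, and its GFP mock start peak held 9 on the coding and 7 on the template strand. Both printed stretches are given 5′ to 3′ on the coding strand, from the GRCm38.p6 assembly.
Actb: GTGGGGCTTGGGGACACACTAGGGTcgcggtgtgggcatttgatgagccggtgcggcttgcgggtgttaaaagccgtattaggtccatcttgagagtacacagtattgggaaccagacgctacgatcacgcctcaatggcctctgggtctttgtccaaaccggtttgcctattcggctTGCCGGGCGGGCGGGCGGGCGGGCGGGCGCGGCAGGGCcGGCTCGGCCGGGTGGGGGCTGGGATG
Zyx: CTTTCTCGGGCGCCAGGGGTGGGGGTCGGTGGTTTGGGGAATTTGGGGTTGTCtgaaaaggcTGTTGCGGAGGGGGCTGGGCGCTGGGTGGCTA

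The promoter sequences differ from these. A CArG box was searched on both strands in the RefSeq promoters (GRCm38.p6), each from 250 bases before to 50 bases after a start. Only the exact form (CC, a run of A or T, then GG) was sought, so boxes with a mismatch or farther away were not counted. The exact form was present in 535 of all 32851 promoters, or 1.63%. Of the 37 genes, 34 had an entry (all but *Actb*, *Tagln* and *Tubb6*). Counted per gene rather than per promoter, 5 of these (*Actg1*, *Cnn2*, *Myl6*, *Myl9* and *Vcl*) had a box. The upstream bases of 3 of them, without the gene's own exons, are shown because they had different patterns of peaks. *Actg1* (chr11:120348543-120348745, minus strand) had a peak at its start in all 4 lists, *Vcl* (chr14:20929148-20929397, plus strand) in all but GFP mock, and *Myl9* (chr2:156775214-156775419, plus strand) in none. The capitals mark the CArG box, which begins 90, 227 and 161 bases before the RefSeq start.
Actg1: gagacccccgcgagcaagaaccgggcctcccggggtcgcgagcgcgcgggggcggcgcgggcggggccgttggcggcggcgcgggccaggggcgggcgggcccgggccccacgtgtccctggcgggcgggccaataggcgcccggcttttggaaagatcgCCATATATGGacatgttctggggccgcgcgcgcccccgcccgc
Vcl: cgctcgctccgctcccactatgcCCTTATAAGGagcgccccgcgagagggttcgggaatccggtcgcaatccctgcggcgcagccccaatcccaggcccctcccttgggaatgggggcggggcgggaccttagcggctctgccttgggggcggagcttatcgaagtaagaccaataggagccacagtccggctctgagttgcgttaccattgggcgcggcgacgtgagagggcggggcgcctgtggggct
Myl9: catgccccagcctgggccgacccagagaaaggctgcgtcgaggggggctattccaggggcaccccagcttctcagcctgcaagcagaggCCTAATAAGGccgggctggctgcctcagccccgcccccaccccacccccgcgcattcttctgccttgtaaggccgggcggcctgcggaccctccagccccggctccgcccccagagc

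Most of the 37 genes carried a hybrid peak in each condition. A peak lay in the window of 30 genes in GFP mock (81.1%, exact 95% interval 64.8 to 92.0), against 55.0% of all protein-coding genes. In GFP DOX the number was 31 (83.8%, 68.0 to 93.8) against 46.0%, in Cre mock 34 (91.9%, 78.1 to 98.3) against 60.4%, and in Cre DOX 33 (89.2%, 74.6 to 97.0) against 54.1%. The intervals cover counting over the 37 genes alone. As many as 26 genes held a peak in all 4 lists, which is 70.3% of the 37 against 33.5% of protein-coding genes, and each of the 37 held a peak in at least 1 list, while 26.1% of protein-coding genes had none in any.

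**Figure D1:**
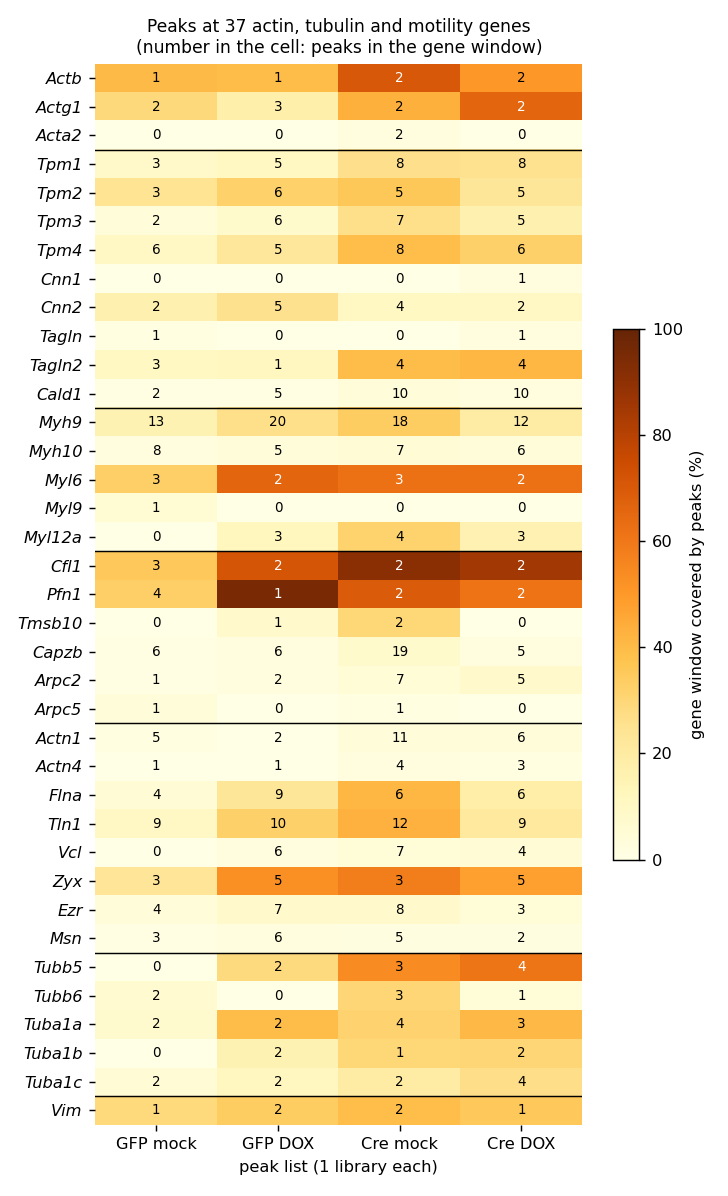
Peaks at each of the 37 genes (rows, in the order of the text, separated by role) in the 4 peak lists (columns). The colour gives the percentage of the gene window covered by peaks and the number in the cell counts the peaks. Short genes such as *Cfl1*, *Pfn1*, *Myl6* and *Actb* were covered most, and *Acta2*, *Cnn1*, *Tagln*, *Myl9* and *Arpc5* had 1 or 2 peaks in all.

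Peaks at start sites were also frequent. Within 1 kb of any annotated start of the gene, 24 of the 37 genes had a peak in GFP mock (64.9%, 47.5 to 79.8) against 30.8% of protein-coding genes, and 28 in GFP DOX (75.7%, 58.8 to 88.2) against 25.8%. Cre mock had 30 (81.1%, 64.8 to 92.0) against 36.7% and Cre DOX 28 (75.7%, 58.8 to 88.2) against 27.6%. For 18 genes the start had a peak in all 4 lists (48.6%, against 13.5% of protein-coding genes). *Myl9* and *Cnn1* alone had no start peak in any list, against 49.6% of protein-coding genes. Many of the genes have several starts. Within 1 kb of the principal start alone (the outermost start among transcripts that GENCODE marks as principal) the numbers were 21, 23, 25 and 24 genes (56.8, 62.2, 67.6 and 64.9%), against 23.7, 19.8, 28.5 and 20.4% of protein-coding genes. *Tpm3*, *Flna* and *Ezr* joined *Myl9* and *Cnn1* in having no peak there in any list, so that their start peaks all lay at other annotated starts.

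**Figure D2:**
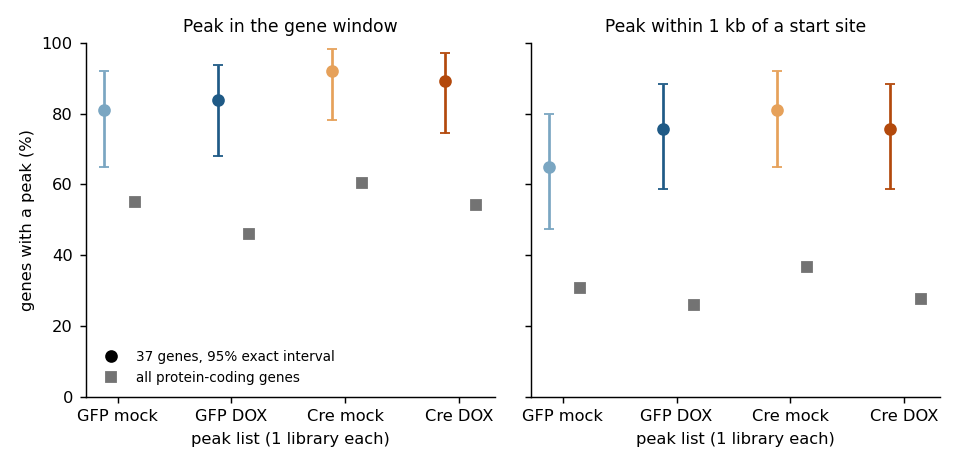
Percentage of genes with a peak in the gene window (left) and within 1 kb of a start site (right) in each peak list. Circles are the 37 genes with exact 95% intervals, squares all 21951 protein-coding genes. The squares lie below the circles in every list and outside the interval, at most 60.4% for the window and 36.7% for the start.

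Gene length moves with the chance of a peak and was therefore held apart. Of the 9 genes under 5 kb, 6, 9, 9 and 8 held a peak in the 4 lists, against 27.1, 24.2, 31.8 and 27.6% of protein-coding genes of that length. Of the 14 genes of 5 to 20 kb, 11, 8, 11 and 11 did so, against 45.3, 37.8, 52.0 and 44.4%. All 8 genes of 20 to 80 kb had a peak in each list, against 53.2 to 72.6%. Of the 6 genes over 80 kb, 5, 6, 6 and 6 had one, where 90.5, 78.1, 91.2 and 88.2% of protein-coding genes did, so that in GFP mock these genes did not exceed the others. The gap was widest for genes under 5 kb.

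The starts of the 37 genes were rich in GC. Sequence features were read over the 1 kb downstream of the principal start. The median GC content there was 60.9%, against 53.6% for protein-coding genes, and the median ratio of observed to expected CpG was 0.709 against 0.512. The median GC skew on the coding strand, the excess of G over C, was 0.0404 against 0.0456. G4Hunter windows were found on the coding strand at 28 of the 37 starts (75.7%, against 53.6%) and on the template strand at 26 (70.3%, against 42.7%). Split by GC content, the 20 starts of at least 60% GC had a peak within 1 kb in 14, 16, 16 and 15 cases, against 53.8, 46.0, 59.0 and 42.4% of protein-coding starts of that class. The 13 starts of 50 to 60% GC had one in 7, 7, 6 and 8 cases, against 20.1, 17.2, 27.6 and 18.4%. The 4 starts under 50% had none in either GFP list, where 6.58 and 4.51% of protein-coding starts had one, and a peak in 3 and 1 cases in the Cre lists, against 8.05 and 7.34%. The part of GC content in the counts was not tested beyond these classes.

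The peaks were broad more than they were high. The peaks at the 37 genes numbered 101, 135, 188 and 136, with median scores of 17, 16, 20 and 17, where peaks at protein-coding genes had 18, 16, 19 and 17. Their median widths were 358, 481, 481 and 569 bp, against 285, 343, 349 and 466 bp. Peaks of 2 kb or more made up 3.96, 10.4, 12.8 and 12.5% of them, against 1.47, 3.83, 3.58 and 6.7%. A peak in the top decile of its list's scores was found at 6, 9, 15 and 7 genes, which is 16.2, 24.3, 40.5 and 18.9% of the 37, against 13.1, 9.92, 16.7 and 9.91% of protein-coding genes. Counted per peak, 5.94, 8.15, 11.7 and 5.15% of the peaks at the 37 genes lay in the top decile, against 10.4, 9.63, 9.95 and 8.03% at protein-coding genes, so that the share was above the background in Cre mock alone. The highest score of any was 56. A peak with a −log10 q of 5 or more was found at 1, 0, 2 and 0 genes, which is 2.7, 0.0, 5.41 and 0.0% of the 37, against 4.58, 1.89, 5.23 and 1.88% of protein-coding genes, so that at this threshold the genes stood below the background in 3 lists and near it in Cre mock. These genes had it within 1 kb of an annotated start, as 1.1% of protein-coding genes did in GFP mock and 1.7% in Cre mock. Between 46.7 and 53.2% of the peaks held a G4Hunter window, against 33.1 to 35.6% of peaks at protein-coding genes. Their median repeat-masked share was 9.43 to 12.5%, against 17.9 to 45.3%.

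Actins form the thin filaments, and the cytoplasmic β-actin and γ-actin (*Actb*, *Actg1*) differ from smooth muscle α-actin (*Acta2*) in where they are made. The peak over the body of *Actb* (ENSMUSG00000029580.14, chr5:142903115-142906754, minus strand) had a score of 20 in GFP mock and 28 in GFP DOX, and of 38 in both Cre lists. Its fold enrichment was 3.51, 4.07, 4.36 and 3.69, and it measured 2281, 2247, 3134 and 2593 bp. It was thus lowest in GFP mock and lay in the top decile of the other 3 lists. Cre mock and Cre DOX had a second peak past the gene's end, of 2451 bp (score 27) and 3967 bp (score 28). *Actg1* (chr11:120345690-120348542, minus strand) had start peaks with scores of 31, 29, 38 and 20, and an end peak of 26, 17, 41 and 12. Here Cre mock was highest and Cre DOX lowest in score, yet the Cre DOX start peak was the longest, at 2812 bp against 1302 bp in GFP mock. These start peaks also lay over *0610009L18Rik*, whose transcript begins on the other side of the start, and DRIP reads without strand cannot separate the transcripts. *Acta2* had 2 peaks, both in Cre mock, 153 bp near its start (chr19:34254682-34254834, score 15) and 249 bp in an intron (chr19:34242934-34243182, score 12).

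**Figure D3:**
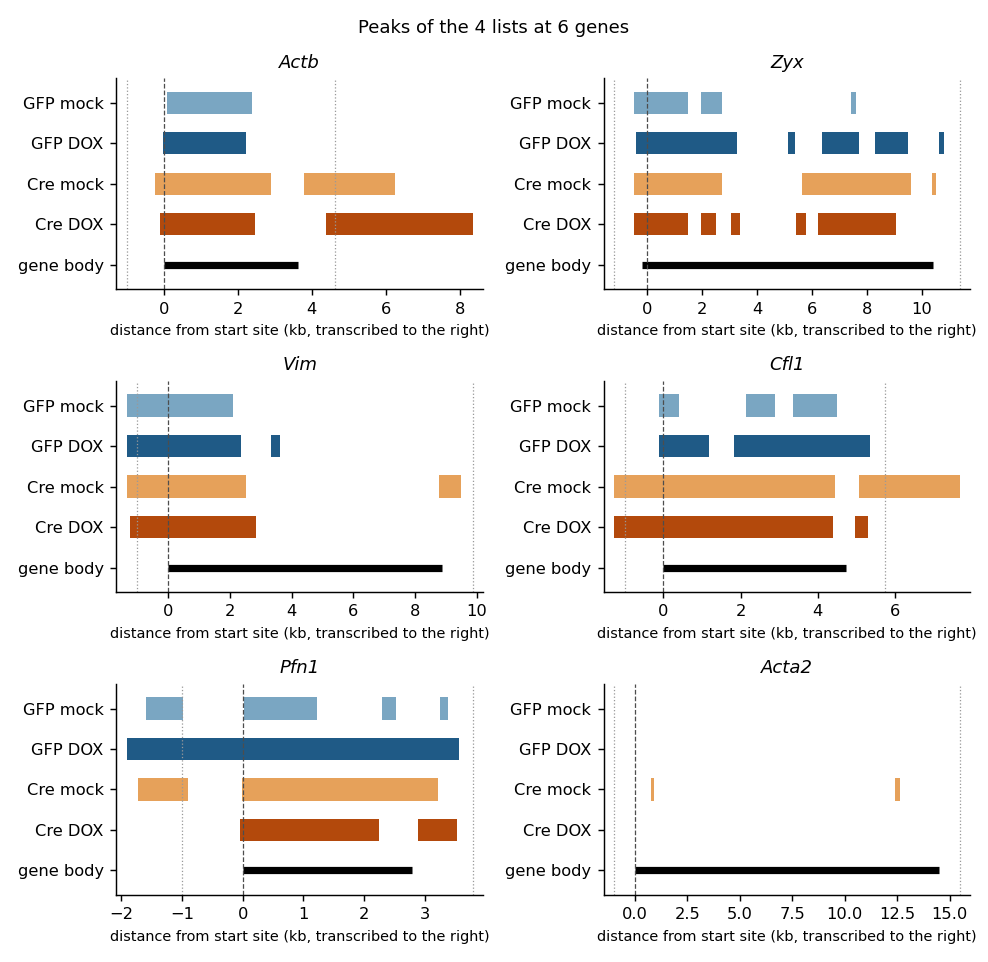
Peaks of the 4 lists (coloured bars) at *Actb*, *Zyx*, *Vim*, *Cfl1*, *Pfn1* and *Acta2*. The x axis gives the distance from the start site in kb with transcription to the right, the black bar the gene body, the dashed line the start and dotted lines the ends of the window. All genes but *Acta2* had a peak over or just past the start in every list. At *Acta2* Cre mock alone had peaks, of 153 and 249 bp.

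Tropomyosins lie along actin filaments and govern the access of myosin. All of *Tpm1*, *Tpm2*, *Tpm3* and *Tpm4* held peaks in all 4 lists, and each list had a peak within 1 kb of an annotated start. For *Tpm3* this was never the principal start, and its GFP mock peaks lay over a coding exon and an intron, 16.7 and 24.0 kb into the gene. *Tpm1* had 3, 5, 8 and 8 peaks, with best scores of 33, 26, 52 and 27. The peak of score 52 (chr9:67043131-67043981) was 851 bp long, had a fold enrichment of 5.16 and lay at a start of shorter transcripts, 5.85 kb into the gene. *Tpm4* had 6, 5, 8 and 6 peaks, which covered 10.1, 22.1, 39.2 and 32.7% of its window, with best scores of 28, 22, 47 and 36. *Tpm3* had 2, 6, 7 and 5 peaks over 3.43, 7.46, 26.5 and 16.3%, with best scores of 35, 24, 30 and 29, the first from a peak of 106 bp that was 93.4% repeat-masked. *Tpm2* had 3, 6, 5 and 5 peaks over 24.3, 32.2, 35.7 and 22.7%, with best scores of only 16, 20, 27 and 27. The covered share was lowest in GFP mock and highest in Cre mock for *Tpm1*, *Tpm3* and *Tpm4*.

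Calponins, transgelins and caldesmon bind actin and tropomyosin, and the smooth muscle forms stood apart from their widely expressed relatives. *Tagln2* had 3, 1, 4 and 4 peaks over 10.5, 11.4, 39.6 and 41.4% of its window, with best scores of 25, 13, 25 and 23. *Tagln*, the smooth muscle form, had 1 start peak of 118 bp in GFP mock (score 28) and 1 of 213 bp in Cre DOX (score 12), and none in the other lists. *Cnn2* had 2, 5, 4 and 2 peaks with best scores of 18, 22, 22 and 21. *Cnn1*, the smooth muscle calponin, had a single peak of 258 bp past its end in Cre DOX (chr9:22109838-22110095, score 14). *Cald1*, whose body spans 177.0 kb, had 2, 5, 10 and 10 peaks with best scores of 15, 19, 36 and 30, and an annotated start had a peak in both Cre lists and in neither GFP list.

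Non-muscle myosin II slides actin filaments, with heavy chains from *Myh9* and *Myh10* and light chains from *Myl6*, *Myl9* and *Myl12a*. *Myh9* had 13, 20, 18 and 12 peaks, the most of the 37 genes in every list but Cre mock, where *Capzb* had 19. They covered 15.5, 26.4, 33.8 and 19.5% of its window of over 80 kb, with best scores of 20, 30, 36 and 29. Regions of *Myh9* with a peak in all 4 lists numbered 5, more than at any other of the genes. *Myh10* had 8, 5, 7 and 6 peaks over 2.29, 3.13, 5.25 and 3.32%, with best scores of 37, 21, 32 and 26. *Myl6* (chr10:128490860-128494145, minus strand) was covered over 33.0, 66.0, 62.1 and 62.1% with best scores of 20, 30, 39 and 32. Its widest peaks, of 5548, 5277 and 6890 bp in all lists but GFP mock, ran past its end into *Smarcc2*. *Myl12a* had no peak in GFP mock and 3, 4 and 3 in the other lists, with best scores of 19, 26 and 25. *Myl9*, the smooth muscle light chain, had a single intronic peak of 457 bp in GFP mock (chr2:156779552-156780008, score 13).

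Actin turnover is run by cofilin (*Cfl1*), which severs filaments, profilin (*Pfn1*), which loads monomers, thymosin (*Tmsb10*), which holds monomers back, capping protein (*Capzb*) and the branching Arp2/3 complex (*Arpc2*, *Arpc5*). *Cfl1* (chr19:5490455-5495201, plus strand) was covered over 35.4, 71.8, 91.0 and 85.0% of its window, with best scores of 28, 34, 38 and 33. In both Cre lists 1 peak, of 5733 bp and 5671 bp, ran from before the start over most of the gene. *Pfn1* (chr11:70651850-70654644, minus strand) was covered over 32.9, 95.2, 69.4 and 61.5%, and the GFP DOX value came from a single peak of 5475 bp. Its best scores were 41, 27, 29 and 29, so that GFP mock had the highest score and the lowest cover. Both genes have close neighbours under the same peaks, *Snx32* and *Rnf167*. *Tmsb10* had a start peak of 277 bp in GFP DOX (score 12) and of 811 bp in Cre mock (score 20), and none in GFP mock or Cre DOX. *Capzb* had 6, 6, 19 and 5 peaks with best scores of 29, 34, 34 and 25. *Arpc2* had 1, 2, 7 and 5 peaks with best scores of 25, 17, 36 and 18. *Arpc5* had a start peak in GFP mock (score 30) and Cre mock (score 26) and none in either DOX list.

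Filamin and α-actinin cross-link filaments, talin, vinculin and zyxin tie them to integrin adhesions, and ezrin and moesin tie them to the membrane. *Zyx* had the highest-scoring peak of the 37 genes, 56 in Cre mock with a fold enrichment of 5.39, over its start (chr6:42349372-42352564, 3193 bp). That start region scored 32 and 31 in the GFP lists and 29 after DOX with Cre, so that Cre mock stood alone. *Tln1* had 9, 10, 12 and 9 peaks over 10.0, 32.6, 42.6 and 21.1% of its window, with best scores of 33, 27, 33 and 25. *Flna* (chrX:74223461-74249820, minus strand) had 4, 9, 6 and 6 peaks over 5.06, 23.0, 41.3 and 18.0%, with best scores of 19, 36, 27 and 28. The Cre mock list held a peak of 9361 bp over its 3′ exons (chrX:74223750-74233110), the widest at any of the genes. *Vcl* had no peak in GFP mock and 6, 7 and 4 in the others, with best scores of 22, 40 and 27, over 2.34, 4.25 and 5.07% of its window.

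The α-actinins, ezrin and moesin had peaks in all 4 lists. *Actn1* had 5, 2, 11 and 6 peaks over 1.56, 0.365, 3.49 and 3.2% of its window, with best scores of 22, 18, 30 and 14. *Actn4* had 1, 1, 4 and 3 peaks with best scores of 16, 13, 17 and 23. *Ezr* had 4, 7, 8 and 3 peaks over 3.18, 8.07, 7.83 and 4.11%, with best scores of 24, 20, 21 and 16, and *Msn* 3, 6, 5 and 2 with 23, 25, 31 and 11. The start of *Msn* had a peak in GFP DOX (181 bp, score 14) and in no other list. The principal start of *Ezr* had none in any list.

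Tubulins make microtubules from α (*Tuba1a*, *Tuba1b*, *Tuba1c*) and β chains (*Tubb5*, *Tubb6*). Their cover differed widely between lists, at 4.61, 14.6, 31.4 and 26.7% of their windows. *Tuba1a* had best scores of 20, 23, 47 and 34 and was covered over 7.41, 39.5, 31.6 and 40.8%. *Tuba1c* had its highest score in GFP mock, 54 from an intronic peak of 340 bp (chr15:99031259-99031598, fold enrichment 5.22), against 16, 25 and 23 in the other lists. *Tuba1b* had no peak in GFP mock and best scores of 21, 18 and 28 in the others. *Tubb5* likewise had no peak in GFP mock and was covered over 28.2, 54.0 and 60.6% in the others, with best scores of 17, 28 and 36. *Tubb6* had 2, 0, 3 and 1 peaks, with best scores of 21, 25 and 13 where it had any. The coding exons of the *Tuba1* genes resemble each other, as do those of *Actb* and *Actg1*. How far reads from them fit several copies was not measured here, and peaks over these exons are uncertain.

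Vimentin (*Vim*, chr2:13573927-13582826, plus strand), the intermediate filament of mesenchymal cells, had 1 long peak at its start. It spanned the start in all 4 lists, with widths of 3418, 3709, 3872 and 4102 bp. Within the gene window 3112 bp lay inside all 4 (chr2:13572927-13576038), the longest such stretch at any of the genes. The score of the start peak was 21, 29, 40 and 41 and its fold enrichment 3.73, 4.3, 4.65 and 4.24. As at *Actb*, both Cre lists were higher in score than both GFP lists. The G4Hunter windows in the start peak lay on both strands, 3 on the coding and 5 on the template strand in each list.

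The contractile genes had few peaks beside the other genes of the list. *Acta2*, *Tagln*, *Cnn1* and *Myl9* together had 6 peaks over the 4 lists, scored 12 to 28, where *Actb* alone had 6. In the 4 lists 2, 0, 1 and 2 of these 4 genes held a peak, and of protein-coding genes of their length (5 to 20 kb) 45.3, 37.8, 52.0 and 44.4% did, so that 2 of 4 stood near that background in GFP mock and Cre DOX and the other two lists below it. *Arpc5*, of the Arp2/3 complex, was as poor, with 2 peaks. The ratio of observed to expected CpG at the principal starts of the 4 contractile genes was 0.322, 0.247, 0.398 and 0.245, against a median of 0.709 over the 37 genes. Of the 8 genes with the lowest ratios (0.0804 to 0.398), *Myl6* (0.366) had a peak at the principal start in all 4 lists, *Tagln* in 2, *Acta2* and *Cald1* in 1, and *Tpm3*, *Flna*, *Myl9* and *Cnn1* in none. *Arpc5* had the highest ratio (0.978) and a peak there in 2 lists. Whether these genes were transcribed in the cells was not measured here.

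Merging the peaks of the 4 lists gave 262 regions at the 37 genes. Of these, 154 had a peak in 1 list, 43 in 2, 32 in 3 and 33 in all 4, the last being 12.6% against 7.0% of regions at protein-coding genes. The more lists a region appeared in, the more often it lay at a start. The share within 1 kb of the start of a protein-coding transcript was 7.14% for regions of 1 list, 16.3% for 2, 31.2% for 3 and 48.5% for 4. Introns held 101 of the 154 regions of 1 list and 1 of the 33 regions of all 4, of which 16 lay at a start, 7 at an end and 9 over coding exons. Within the gene windows, a stretch common to all 4 lists remained in 24 of the 33, at 15 genes, with a median length of 455 bp. Outside exons these stretches held 19 G4Hunter windows, 12 on the coding and 7 on the template strand, at *Actb*, *Actg1*, *Tpm1*, *Vim* and *Zyx*.

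**Figure D4:**
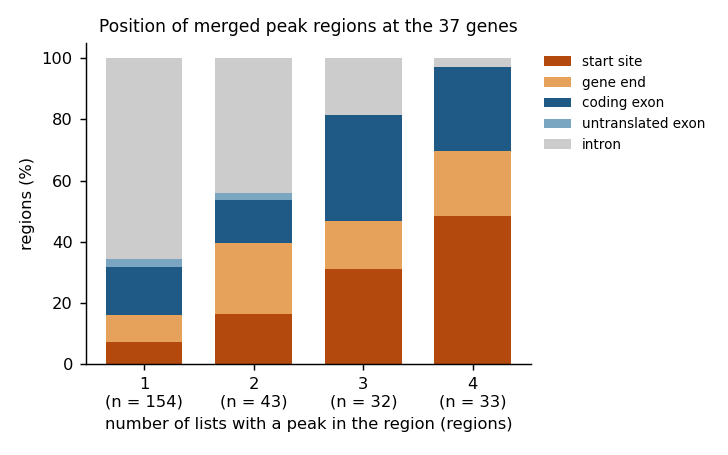
Position of the 262 merged regions at the 37 genes, by the number of lists with a peak in the region (x axis, with the number of regions). The bars give the percentage of regions at a start site, a gene end, a coding exon, an untranslated exon or an intron. The start share rises from 7.14 to 48.5% from left to right and introns shrink from 101 of 154 to 1 of 33. Longer regions are more likely to touch a start and to be shared, which the plot does not separate.

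The comparison of mock and DOX libraries asks how hybrids change when RNase H1 is induced. With GFP, the 37 genes held more peaks after DOX, 135 against 101 (a ratio of 1.34), while all protein-coding genes held fewer (0.75, or 1.12 with equal numbers of peaks in the lists, where the 37 genes had 2.01). The covered share of their windows was 8.6% against 4.41%, where that of protein-coding genes was 1.27% in both. The covered length was greater after DOX at 28 genes, smaller at 7 and equal at 2, where 42.6% of the protein-coding genes that differed had more. *Pfn1*, *Cfl1*, *Myl6* and *Tuba1a* gained most in share of the window, and *Actg1*, *Tubb6*, *Arpc5*, *Myl9*, *Tagln*, *Actn1* and *Actb* were the 7 that lost, *Actb* only from 2281 to 2247 bp. Of the 101 GFP mock peaks, 33 had no overlapping peak in GFP DOX (32.7%, exact 95% interval 23.7 to 42.7), against 69.8% at protein-coding genes. This interval treats peaks as independent although many share a gene, so it is likely too narrow. Where weaker peaks were left out of both lists, a peak over a weaker one also counted as having none. The share was then 55.3% against 77.1% at a −log10 q of at least 2. In the top decile it was 100.0% (6 of 6 peaks) against 75.2%, no longer below the background. With equal numbers of peaks it was 26.9% against 64.8%.

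With Cre the direction was the other way. The genes held 136 peaks in Cre DOX against 188 in Cre mock, a ratio of 0.723 (protein-coding genes 0.819). These ratios were 0.889 and 1.18 with peaks of at least 213 bp. With peaks at most 50% repeat-masked they were 0.716 and 0.592, so that protein-coding genes fell more. All peaks together covered 9.75% against 13.7% of the gene windows, where protein-coding genes had 2.42% against 2.2%. The covered length was smaller after DOX at 25 genes, greater at 10 and equal at 2, so that 28.6% of those that differed were up, against 43.5% of the protein-coding genes that differed. *Tmsb10*, *Tubb6*, *Flna*, *Tln1* and *Actb* were among those with less cover, and *Actg1*, *Tuba1a*, *Tuba1c* and *Tubb5* among those with more. Of the 188 Cre mock peaks, 113 had no overlapping peak in Cre DOX (60.1%, 52.7 to 67.2), close to the 65.3% at protein-coding genes. With peaks at most 50% repeat-masked the gap was wider, at 60.2% against 74.2%. Counted from the DOX lists with all peaks, the order of the GFP and Cre gaps was turned round. Of the Cre DOX peaks 37.5% (29.4 to 46.2) had none in Cre mock, against 59.7% at protein-coding genes, and of the GFP DOX peaks 56.3% (47.5 to 64.8) had none in GFP mock, nearer to the 61.7% at protein-coding genes. In peak number and cover the GFP and Cre changes opposed each other in these libraries, and the difference could not be tested.

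**Figure D5:**
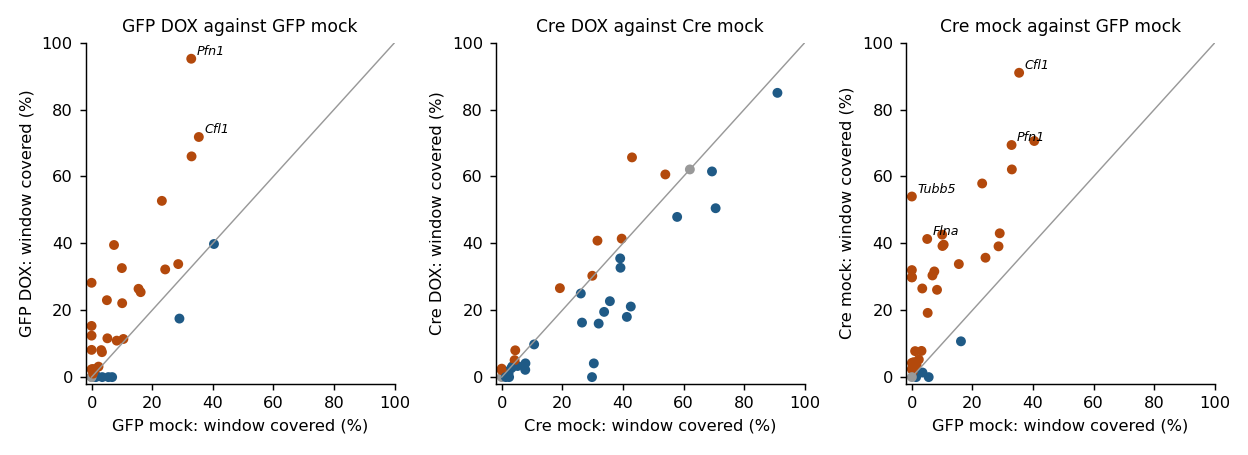
Percentage of each gene window covered by peaks, for GFP DOX against GFP mock (left), Cre DOX against Cre mock (middle) and Cre mock against GFP mock (right). Each point is 1 of the 37 genes, orange where the list on the y axis covers more, blue where it covers less and grey where both are equal, and names mark the largest differences. On the left 28 points lie above the diagonal, in the middle 10 and on the right 32.

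The comparison of Cre mock with GFP mock asks how hybrids change without RTEL1. Cre mock had 188 peaks against 101 (a ratio of 1.86, protein-coding genes 1.29) and covered 13.7% against 4.41% of the windows, where protein-coding genes had 2.2% against 1.27%. The cover was greater at 32 genes, smaller at 4 and equal at 1, so that 88.9% of those that differed were up, against 68.5% of protein-coding genes. The 4 with less were *Tagln*, *Myl9*, *Cnn2* and *Arpc5*. Of the Cre mock peaks 67.0% (59.8 to 73.7) had no overlapping GFP mock peak, against 71.0% at protein-coding genes, while 33.7% of the GFP mock peaks (24.6 to 43.8) had none in Cre mock, against 59.8%. With both lists cut to their top decile neither share was below the background, at 86.4% against 72.9% and 66.7% against 66.5%. Between the DOX libraries the genes stood below the background. From GFP DOX to Cre DOX the cover was greater at 22 genes, smaller at 12 and equal at 3, so that 64.7% of those that differed were up, against 71.1% of protein-coding genes, and the covered length changed by a ratio of 1.13 against 1.86. These comparisons share libraries. GFP mock had the lowest minimum peak width and Cre DOX the highest, whose part in the numbers was tested only by the alternatives given further on. *Myh9* held 13 to 20 of the peaks in a list, and without it the counts were 88, 115, 170 and 124. Peak density also differed by chromosome, with 60.1 GFP mock peaks per Mb on chromosome 15, which holds *Myh9* and the *Tuba1* genes, and 14.9 on chromosome 12, which holds *Actn1*.

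Other genes of the same pathways were taken from a list of 60 names, of which 58 matched. They too were rich in peaks, with 39, 43, 48 and 49 of the 58 holding one (67.2, 74.1, 82.8 and 84.5%), and 31, 34, 40 and 32 at a start (53.4, 58.6, 69.0 and 55.2%). These shares lay between those of the 37 genes and of all protein-coding genes in every list. *Rock1*, the kinase that activates myosin II, had best scores of 169, 117, 224 and 37, above all of the 37 genes in every list but Cre DOX, where *Vim* (41) and *Actb* (38) were higher. *Coro1b*, an actin-binding coronin, had 32, 33, 49 and 40. Destrin (*Dstn*), *Tmsb4x*, *Vasp*, *Tuba4a* and *Tpm3-rs7* had no peak in any list.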

How the data were processed

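The DRIP-seq data were 4 peak lists of mouse embryonic fibroblasts, 1 per condition, and the 4 input samples were not analysed here. Per the labels and the study's methods, 3 S9.6 immunoprecipitations were pooled per library. The authors ran the nf-core/chipseq pipeline in single-end mode (trimming, BWA alignment to mm10, filtering, peak calling with MACS2) and deposited broad peaks per library, although the command they state has the narrow-peak option. Whether the inputs served as controls is not given in the sources used here. The deposited files hold a score (10 times −log10 q, rounded down, in 99.9962% of 344010 peaks), a fold enrichment ratio, and −log10 p and −log10 q values. None is normalized between libraries, and read depth is unknown.

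Gene windows (body and 1 kb to either side) came from GENCODE M21. A peak counted with 1 bp of overlap, a promoter peak within 1 kb of any annotated start, and the top decile as scores at or above the 90th percentile of a list. Whether a peak lay at a start was judged from starts of protein-coding transcripts. For starts, GC content, GC skew and G4Hunter windows (25 bases, score 1.5, runs scored up to 4) were read from GRCm38.p6 over the 1 kb downstream of the principal start. The background is all 21951 protein-coding genes. Intervals are exact Clopper-Pearson 95% intervals and cover counting only. Those for peaks treat the peaks of a gene as independent and are likely too narrow. With 1 library per condition no test between conditions was made. All genes were counted, and values are given in every list for *Actb*, for genes with a peak in all 4 lists or in the top decile, and for genes with a peak in 1 mock list only. The members and lists were chosen with earlier results of these data known. Alternatives were the peak filters, overlap rules, flanks and start definitions listed in the closing section. Overlap and G4 functions were tested on simulated data. Python 3.11.15, NumPy 2.4.6, SciPy 1.17.1 and matplotlib 3.10.9 were used.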

Additional observations from a re-analysis of the deposited data

Results flagged for a closer look

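The 37 genes moved in opposite directions after DOX in the GFP and the Cre libraries, which is why these values are singled out. Each rests on 1 library per condition, so the difference between the GFP and Cre changes was not tested. The number of genes with a peak changed by 1 with GFP and by -1 with Cre, while the share of protein-coding genes with a peak fell in both, from 55.0 to 46.0% and from 60.4 to 54.1%. The number with a start peak changed by 4, from 64.9 to 75.7% of the genes, and by -2, from 81.1 to 75.7%, while that of protein-coding genes fell from 30.8 to 25.8% and from 36.7 to 27.6%. In these shares the falls with Cre were smaller at the 37 genes than at protein-coding genes. The covered percentage of the gene windows changed by 4.19 points with GFP and by -3.92 points with Cre, and the number of peaks by 34 and by -52. In these measures the fall with Cre was the larger at the 37 genes, with ratios of 0.713 for cover and 0.723 for peaks, against 1.08 and 0.819 at protein-coding genes. With peaks at most 50% repeat-masked the order of the peak ratios turned, at 0.716 against 0.592. The changes of 1 and -1 gene are single genes.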

How the results depend on the processing

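No paired analysis was possible because each condition has 1 library and no test was made. Of 152 recomputed values, 103 stayed within the interval or within 1.5 times the value reported and 49 did not. Among these, the numbers of genes and the cover fell when weaker peaks were left out. In the order used above, top-decile peaks left 6, 9, 15 and 7 genes with a peak, 3, 9, 9 and 6 with a start peak (8.11, 24.3, 24.3 and 16.2%, protein-coding genes 4.38, 3.84, 6.7 and 3.13%), and 0.146, 1.53, 2.68 and 1.71% of the windows covered. With a −log10 q of at least 5, they were 1, 0, 2 and 0 genes, 1, 0, 2 and 0 start peaks, and 0.0271, 0.0, 0.323 and 0.0%. Here 2.7, 0.0, 5.41 and 0.0% of the 37 genes had a peak, against 4.58, 1.89, 5.23 and 1.88% of protein-coding genes, below the background in 3 lists and near it in Cre mock (2 genes). At starts the same numbers stood against 1.1, 0.556, 1.7 and 0.606%, above the background in both mock lists and below it in both DOX lists. With a −log10 q of at least 2, 13 and 17 genes had a start peak in the GFP lists (35.1 and 45.9%, against 16.4 and 11.3%), and cover was 2.23 and 4.36% in these lists and 5.76% in Cre DOX.

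The shares of peaks missing from another list moved as well. Peak filters cut both lists, so a peak that overlapped only peaks failing the filter also counted as missing. For GFP mock peaks missing from GFP DOX the shares were 100.0% in the top decile (6 peaks), 55.3% at −log10 q of at least 2 and 100.0% at 5 or more (1 peak). They were 44.6% where the other list had to cover 50% of the peak, and 22.8% where any peak on the same restriction fragment counted. For Cre mock peaks missing from Cre DOX they were 72.7, 68.0, 100.0, 72.9 and 43.6% in that order, and 67.7% with equal numbers of peaks, against 82.1, 73.6, 79.7, 75.0, 50.2 and 70.6% at protein-coding genes. For Cre mock peaks missing from GFP mock they were 86.4, 78.4, 100.0, 85.6 and 49.5%, against 72.9, 74.1, 63.3, 83.8 and 56.0%, so above the background in all but the last. For GFP mock peaks missing from Cre mock they were 66.7% in the top decile, 100.0% at −log10 q of 5 or more, 45.5% with 50% covered and 13.9% on the same fragment, against 66.5, 58.8, 70.3 and 45.5%, so not below the background in the first pair of settings. At protein-coding genes the GFP mock share missing from GFP DOX was 75.2, 77.1, 72.4, 79.5 and 57.2% in the 5 settings. The restriction-fragment rule was chosen after seeing the data. The cause of these moves was not tested.

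The ratio of peaks at the genes between GFP DOX and GFP mock was 2.01 with equal numbers of peaks, 1.58 with peaks of at least 213 bp, 1.35 with peaks at most 50% repeat-masked, 1.11 at −log10 q of at least 2 and 1.83 in the top decile, so it stayed above 1, except at −log10 q of 5 or more, where 1 peak became 0. The ratio between Cre DOX and Cre mock was 0.526, 0.889, 0.716, 0.567 and 0.318 in that order. Over protein-coding genes the GFP ratio turned from 0.75 to 1.12 with equal numbers of peaks, and was 0.845, 0.823, 0.546 and 0.696 in the other 4 settings. The Cre ratio turned from 0.819 to 1.18 with peaks of at least 213 bp, and was 0.659, 0.592, 0.658 and 0.661 in the others. Read counts were not used here, so a peak just under a list's threshold and no signal cannot be told apart.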
